A study of Mus musculus with 6 samples.

Results

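The 10 genes described here encode enzymes of the G2 to mitosis transition, the transcription factor FOXM1 and markers of proliferating cells: Cdk1, Plk1, Aurka, Nek2, Foxm1, Top2a, Mki67, Tpx2, Ube2c and Cdc25b. They were chosen by name. Each was read from the brightest array cluster annotated with exactly 1 gene symbol equal to its own, and all 10 were found among the 19938 genes named in this way. Their levels were compared between 3 cultures of Rb1L/L and 3 cultures of Rb1+/+ mouse embryonic fibroblasts (MEFs), which are connective tissue cells grown from embryos, with 1 array per culture. Both genotypes came from E13.5 embryos, were cultured to passage 4 and were still proliferating when RNA was taken. The L allele of Rb1 is known to alter the cleft through which the retinoblastoma protein pRb binds partners with an LXCXE motif, and it is still transcribed. Rb1 itself measured log2 8.93 ± 0.07 in Rb1L/L and 8.83 ± 0.19 in Rb1+/+ cultures (SD, n = 3 each), so its level does not check the genotype. No treatment is named in the labels, and they give neither a mouse strain nor the number of embryos.

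Cells enter mitosis when the kinase CDK1, bound to a B-type cyclin, is freed of inhibitory phosphates by CDC25 phosphatases. Polo-like kinase 1, Aurora A with its activator TPX2, and NEK2 then build and separate the spindle poles, and the enzyme UBE2C with the anaphase-promoting complex (APC/C) marks mitotic proteins for destruction. In most cells these genes are silenced together in early cell cycle phases by the DREAM complex, which contains the pRb relatives p107 or p130, and are switched on together late in the cycle by MuvB with B-MYB and FOXM1. Both kinds of complex are known to act through a promoter element called the CHR, usually with the letters TTTGAA, and often with CCAAT boxes nearby.

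Promoters of the genes are printed because such genes are known to be controlled through these elements, though not every promoter given holds both TTTGAA and CCAAT. RefSeq promoters (GRCm38.p6), which run from 250 bases before to 50 bases after the annotated start, were given for 8 of the 10 genes: Cdk1, Plk1, Aurka, Nek2, Top2a, Mki67, Ube2c and Cdc25b. The 150 bases from 100 before the start are given 5′ to 3′ on the strand of the gene for the 4 kinases and for Ube2c and Mki67. The stretches are chr10:69352863-69353012 (minus strand) for Cdk1, chr7:122159335-122159484 (plus) for Plk1, chr2:172370521-172370670 (minus) for Aurka, chr1:191821373-191821522 (plus) for Nek2, chr2:164769829-164769978 (plus) for Ube2c and chr7:135716330-135716479 (minus) for Mki67. Capitals mark TTTGAA and CCAAT, or their complements TTCAAA and ATTGG.
Cdk1: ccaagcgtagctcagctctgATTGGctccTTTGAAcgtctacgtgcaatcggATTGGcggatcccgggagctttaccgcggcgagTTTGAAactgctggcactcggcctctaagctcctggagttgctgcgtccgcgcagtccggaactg
Plk1: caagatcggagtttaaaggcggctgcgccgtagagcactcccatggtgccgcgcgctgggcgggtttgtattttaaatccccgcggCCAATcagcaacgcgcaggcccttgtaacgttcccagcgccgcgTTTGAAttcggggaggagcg
Aurka: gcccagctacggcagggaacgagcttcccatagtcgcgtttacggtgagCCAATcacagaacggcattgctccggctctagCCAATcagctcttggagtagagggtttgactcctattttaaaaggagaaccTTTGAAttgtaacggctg
Nek2: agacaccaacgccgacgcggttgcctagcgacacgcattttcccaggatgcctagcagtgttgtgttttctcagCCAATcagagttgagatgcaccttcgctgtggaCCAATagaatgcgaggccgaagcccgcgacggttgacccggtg
Ube2c: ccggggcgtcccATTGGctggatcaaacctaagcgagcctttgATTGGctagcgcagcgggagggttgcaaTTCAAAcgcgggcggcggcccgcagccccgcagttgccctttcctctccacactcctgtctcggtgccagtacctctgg
Mki67: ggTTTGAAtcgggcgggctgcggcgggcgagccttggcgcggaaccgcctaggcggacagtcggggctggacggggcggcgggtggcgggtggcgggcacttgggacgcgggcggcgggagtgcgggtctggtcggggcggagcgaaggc

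Over the full window of 300 bases and on both strands, TTTGAA was present in 6 of the 8 promoters, against 17.9% of all 32851 promoters in the table. The 6 were those of Cdk1, Plk1, Aurka, Top2a, Mki67 and Ube2c, and the 2 without it were those of Nek2 and Cdc25b. The distance to the annotated start varied: the nearer of the 2 copies in Cdk1 began 15 bases before it, whereas the copies in Plk1 and Aurka began 30 and 32 bases after it. CCAAT was present in all 8, against 37.4% of all promoters, and 2 of the copies in Ube2c overlap on opposite strands. The variant TTTAAA was found in Plk1 and Aurka (2 of 8, against 13.2%). Other variants of the CHR were not searched, so a promoter without these letters was not shown to lack the element. Of the E2F sites searched (TTTCCCGC, TTTCGCGC, TTTGGCGC and TTTGCCGC), 1 was found, TTTCGCGC in Cdk1 (1 of 8, against 2.3%). In 29 genes of a list of FOXM1 and MuvB targets described further on, 71.9% of 32 promoters held TTTGAA. These are matches of letters and do not show that a protein binds there.

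Of the 10 genes, 5 rose in Rb1L/L cultures, none fell by limma (0 also at an unadjusted p under 0.05) and 5 did not pass the test. The 5 that rose were the kinase genes Cdk1, Plk1, Aurka and Nek2 and the Aurora A activator gene Tpx2. The background was 7.1% of the 15462 genes tested called higher, 5.08% called lower and 12.2% called in either direction (1098 higher and 785 lower, or 883 higher and 1067 lower when each array was centred on the median of the tested genes). Groups were compared with limma over all tested genes, with Benjamini-Hochberg adjusted p under 0.05 as the threshold, and each log2 fold change is the Rb1L/L mean minus the Rb1+/+ mean. All 10 genes lay above the limit of log2 5.081 set for testing. The median log2 fold change of the 10 was 0.37, a 1.30-fold difference, against -0.02 for all tested genes. The changes were small: 1 of the 10 exceeded 1.5-fold, as did 1.32% of the tested genes. The arrays measure whole cultures, so a larger share of cells in G2 or mitosis and more transcript per such cell cannot be told apart.

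Cdk1, the kinase that drives entry into mitosis, measured log2 11.69, 11.75 and 11.66 in Rb1L/L replicates 1, 2 and 3, against 11.17, 11.39 and 11.32 in Rb1+/+ replicates 1, 2 and 3. Every Rb1L/L array lay above every Rb1+/+ array. Cdk1 rose 1.33-fold (log2 fold change 0.41 ± 0.07 SE, 95% interval 0.25 to 0.57, adjusted p = 0.0113), a change larger than that of 96.7% of tested genes. Its activator gene Cdc25b, one of the CDC25 phosphatases, measured 8.54, 8.79 and 8.59 in Rb1L/L, against 8.04, 8.29 and 8.43 in Rb1+/+ cultures. The groups did not overlap, but the highest Rb1+/+ array lay 0.10 below the lowest Rb1L/L array. The log2 fold change of Cdc25b was 0.38 ± 0.11 (SE; 95% interval 0.13 to 0.63) and missed the threshold (adjusted p = 0.0562), whereas with the replicate number as a block it passed (adjusted p = 0.0282).

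Nek2, the kinase gene whose product dissolves the linker between the centrosomes, had the largest change of the 10. It measured log2 9.07, 9.26 and 8.91 in Rb1L/L, against 8.31, 8.55 and 8.48 in Rb1+/+ cultures. The Rb1L/L arrays spread over more than the Rb1+/+ arrays, yet the lowest of them still lay 0.36 above the highest Rb1+/+ array. Nek2 rose 1.56-fold (0.64 ± 0.10 SE, 95% interval 0.41 to 0.87, adjusted p = 0.00865). Aurka, which encodes the Aurora kinase of centrosomes and spindle poles, measured 10.09, 10.14 and 10.09 in Rb1L/L, against 9.37, 9.71 and 9.70 in Rb1+/+ cultures. The 3 Rb1L/L arrays were nearly alike, and Rb1+/+ replicate 1 stood below its group. Aurka rose 1.43-fold (0.52 ± 0.09 SE, 95% interval 0.30 to 0.73, adjusted p = 0.0143).

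Plk1, the polo-like kinase gene needed for centrosome maturation and a bipolar spindle, measured log2 11.15, 11.25 and 11.25 in Rb1L/L, against 10.65, 10.96 and 10.90 in Rb1+/+ cultures. The groups did not overlap, and Plk1 rose 1.30-fold (0.38 ± 0.09 SE, 95% interval 0.19 to 0.58, adjusted p = 0.0276). Tpx2, whose product binds Aurora A and activates it on spindle microtubules, measured 10.01, 10.20 and 10.12 in Rb1L/L, against 9.59, 9.88 and 9.82 in Rb1+/+ cultures. Again no Rb1L/L array reached down to the Rb1+/+ range. Tpx2 rose 1.27-fold (0.35 ± 0.09 SE, 95% interval 0.15 to 0.55, adjusted p = 0.0402). Ube2c, the ubiquitin-conjugating enzyme that starts chains for the APC/C, measured 10.62, 10.62 and 10.61 in Rb1L/L, against 10.29, 10.49 and 10.46 in Rb1+/+ cultures. The groups were apart by 0.12 at their nearest points, and the difference of 0.20 ± 0.07 (SE; 95% interval 0.05 to 0.36) did not pass (adjusted p = 0.087).

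Foxm1, the transcription factor gene of the mitotic programme, measured log2 9.95, 10.03 and 10.04 in Rb1L/L, against 9.61, 9.86 and 9.91 in Rb1+/+ cultures. The groups were parted by a margin of 0.04, and the log2 fold change of 0.21 ± 0.09 (SE; 95% interval 0.01 to 0.41) did not pass (adjusted p = 0.147). Top2a, the topoisomerase gene that disentangles sister chromatids, measured 9.98, 10.13 and 9.95 in Rb1L/L, against 9.41, 9.84 and 9.70 in Rb1+/+ cultures. The groups did not overlap, but Rb1+/+ replicate 1 lay far below the other arrays, and Top2a with 0.37 ± 0.11 (SE; 95% interval 0.12 to 0.62) missed the threshold (adjusted p = 0.0631). With the replicate block it passed (adjusted p = 0.0259). A second Top2a cluster was dim, below the limit for testing, at 3.63, 3.60 and 3.76 in Rb1L/L, against 3.25, 3.29 and 3.33 in Rb1+/+ cultures. Mki67, whose product Ki-67 coats mitotic chromosomes and is the usual stain for cycling cells, measured 10.25, 10.30 and 10.30 in Rb1L/L, against 10.01, 10.29 and 10.21 in Rb1+/+ cultures. It was the only one of the 10 whose groups overlapped, since Rb1+/+ replicate 2 lay above Rb1L/L replicate 1, and its log2 fold change of 0.12 ± 0.08 (SE; 95% interval -0.06 to 0.29) did not pass (adjusted p = 0.372).

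**Figure D1:**
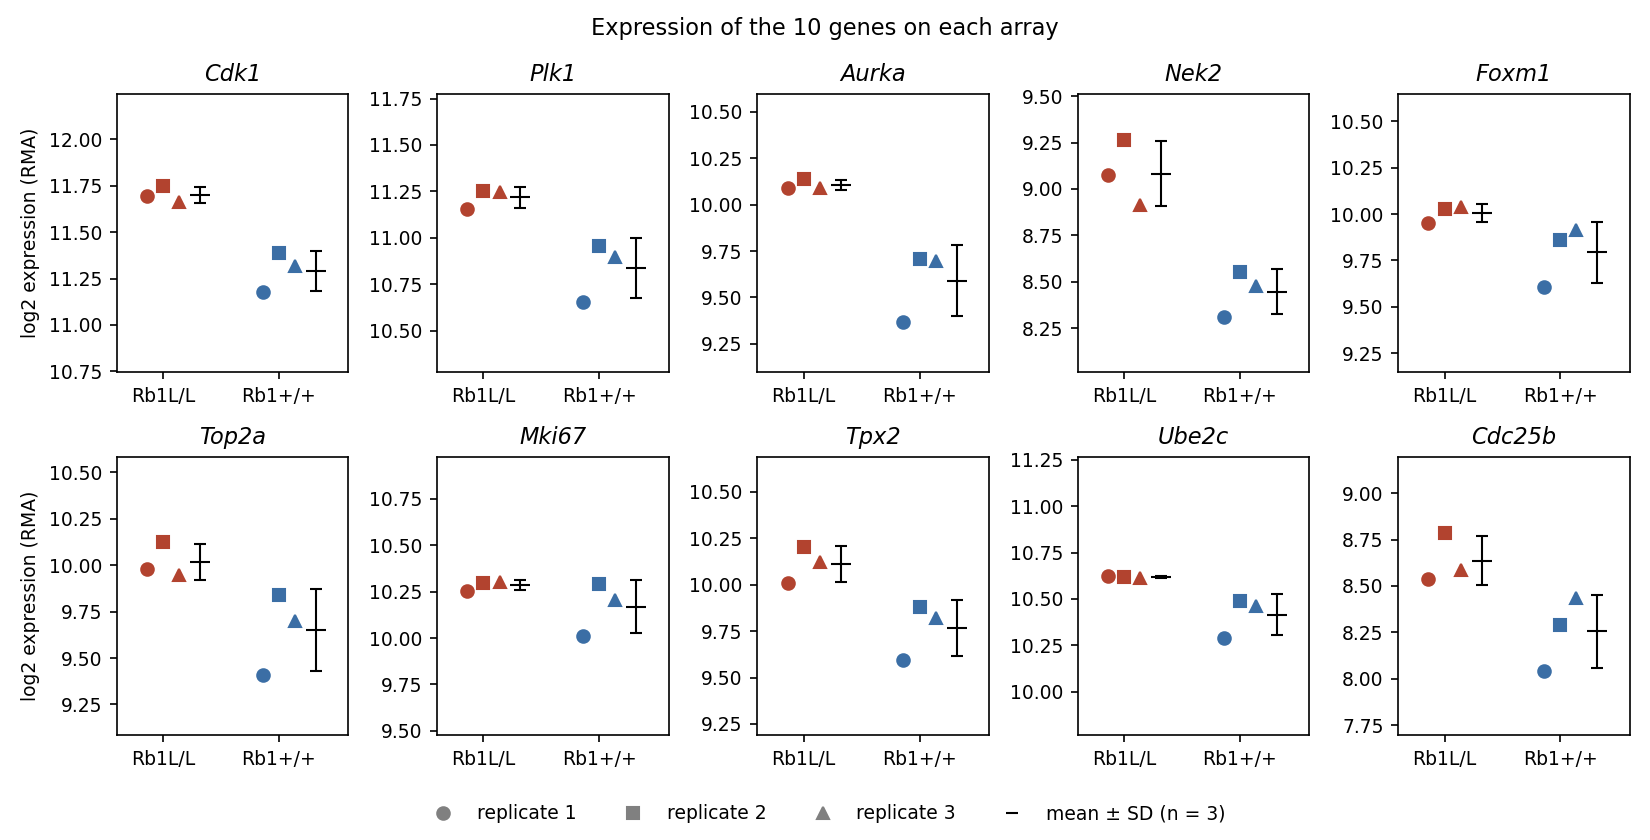
Log2 expression (vertical axes, each spanning the same range of log2 units) of the 10 genes on the 6 arrays, Rb1L/L in red on the left and Rb1+/+ in blue on the right, with the marker shape giving the replicate number and the black bar the mean ± SD (n = 3). Groups are apart for 9 genes and overlap for Mki67, and Rb1+/+ replicate 1 is the lowest point for all 10 genes.

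In all, the groups did not overlap for 9 of the 10 genes, against 34.5% of all tested genes in either direction and 16.2% with Rb1L/L higher. At an unadjusted p under 0.05, 9 of the 10 were counted, all with Rb1L/L higher, against 14.4% of all tested genes in that direction and 28.7% in either. Foxm1, Ube2c, Top2a and Cdc25b are among those 9 but missed the adjusted threshold. The 10 genes were read on the same 6 cultures, and Rb1+/+ replicate 1 was the lowest array for all 10. They are therefore not 10 independent results. The genes did not move by the same amount. The interval of Nek2 began at 0.41, above the upper end of that of Mki67 at 0.29. On the arrays themselves the Nek2 value minus the Mki67 value was -1.18, -1.04 and -1.39 in Rb1L/L, against -1.70, -1.74 and -1.73 in Rb1+/+ cultures. The pair was picked as the extremes of the 10, so this difference is a description and was not tested.

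**Figure D2:**
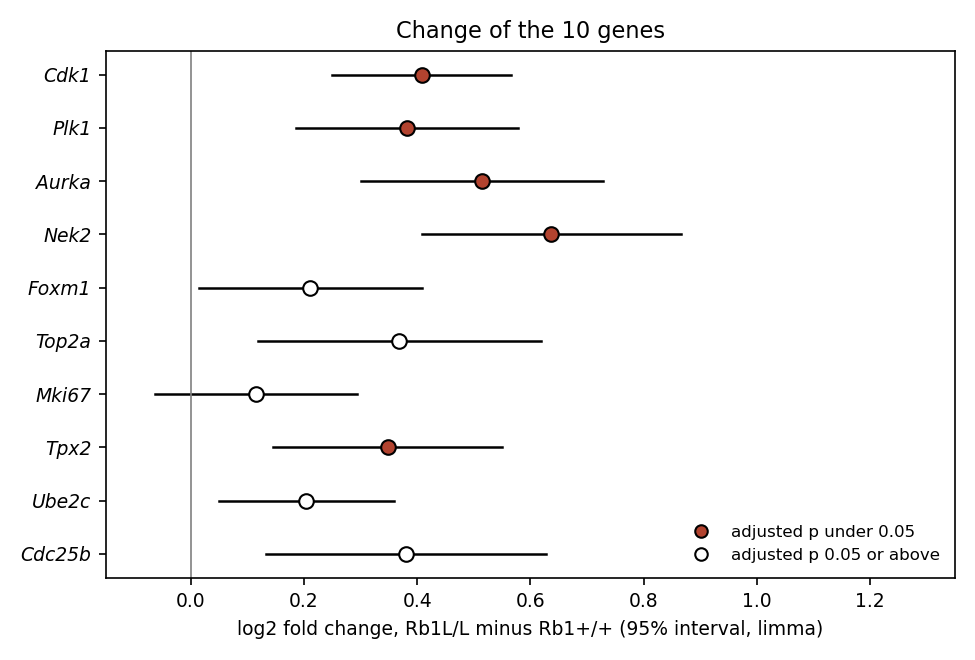
Log2 fold change (horizontal axis, Rb1L/L minus Rb1+/+) of each of the 10 genes with its 95% interval from limma, filled where the adjusted p was under 0.05. The filled points are Cdk1, Plk1, Aurka, Nek2 and Tpx2, and the interval of Mki67 is the only one that includes 0.

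The design text speaks of pairs of cultures, and same-numbered cultures deviated together, so the differences were also read within the numbered pairs. All 10 genes were higher in the Rb1L/L culture of each of the 3 pairs, against 23% of all tested genes. For the 9 genes whose groups did not overlap this holds under any pairing, so only Mki67 was open. The median difference was 0.50 in pair 1, 0.31 in pair 2 and 0.28 in pair 3, where the medians of all tested genes were -0.02 in each. Pair 1 gave the largest difference for 9 genes, and Cdc25b, with 0.49, 0.50 and 0.15 in pairs 1, 2 and 3, was the exception. Nek2 differed by 0.76, 0.71 and 0.44 and Aurka by 0.72, 0.43 and 0.40. Mki67 was nearly level in pair 2, with 0.24, 0.01 and 0.09 in pairs 1, 2 and 3. With the replicate number as a block, 7 of the 10 genes passed, Top2a and Cdc25b joining the 5 (background 7.99% of tested genes higher, 6.45% lower and 14.4% in all). Foxm1 (adjusted p = 0.0822), Ube2c (adjusted p = 0.0878) and Mki67 (adjusted p = 0.298) did not.

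**Figure D3:**
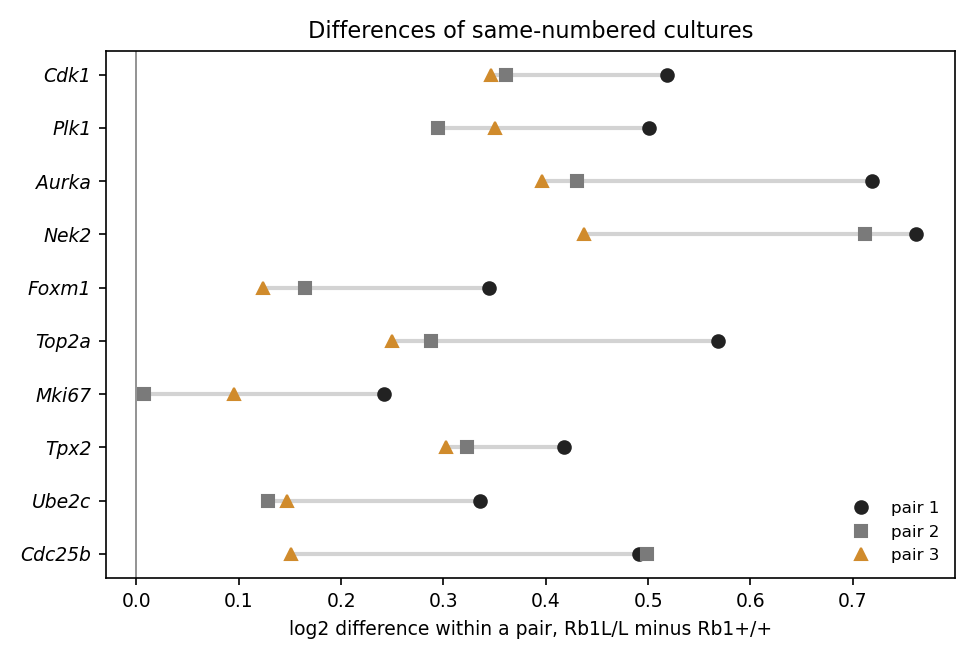
Log2 difference (horizontal axis) between the Rb1L/L and the Rb1+/+ culture of the same replicate number for each of the 10 genes, with circles for pair 1, squares for pair 2 and triangles for pair 3. All points lie above 0, pair 1 lies farthest out for 9 genes, and the nearest point to 0 is Mki67 in pair 2 at 0.01.

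Rb1+/+ replicate 1 was the lowest of the 6 arrays for all 10 genes, as it was for 17.8% of all tested genes. Averaged over the 10 genes, the arrays measured log2 10.14, 10.25 and 10.15 in Rb1L/L, against 9.65, 9.93 and 9.89 in Rb1+/+ cultures. The spread was the larger in Rb1+/+ for 9 genes, with a median SD over the 10 genes of 0.05 in Rb1L/L and 0.16 in Rb1+/+ cultures. Over all tested genes the median SD was 0.072 in Rb1L/L and 0.085 in Rb1+/+ cultures. Both cultures numbered 1 were of male type: Eif2s3y, a Y-linked gene, stood at 8.47 in Rb1L/L replicate 1 and 8.36 in Rb1+/+ replicate 1 and at 3.63 or lower elsewhere. Rb1L/L replicate 1 was the lowest of its group for 6 of the 10 genes. Without Rb1+/+ replicate 1, the median log2 fold change of the 10 was 0.27, and Cdk1 (adjusted p = 0.0344), Aurka (adjusted p = 0.0222) and Nek2 (adjusted p = 0.0351) passed while Plk1 (adjusted p = 0.0535) and Tpx2 (adjusted p = 0.0925) did not. Cdk1 and Nek2 passed in all 6 fits that left out 1 array, and Aurka in 5, missing without Rb1L/L replicate 2 (adjusted p = 0.0526). Plk1 and Tpx2 passed in 1 of the 6, that without Rb1+/+ replicate 2 (adjusted p = 0.028 and 0.0413), and otherwise had adjusted p up to 0.0867 and 0.127, both without Rb1L/L replicate 2. Top2a passed without Rb1+/+ replicate 2 (adjusted p = 0.0372) and Cdc25b without Rb1+/+ replicate 3 (adjusted p = 0.0474). Without both cultures numbered 1 none of the 10 passed by limma, with adjusted p = 0.0787 for Aurka, the smallest, and a median log2 fold change of 0.32. Among all 15462 tested genes 92 were then called. At an unadjusted p under 0.05 by limma, 7 of the 10 were counted in that fit, against 3021 of all tested genes.

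Regulators of CDK1 moved in part with it. Of 14 tested genes of the cyclins and switch regulators around CDK1, 5 rose and none fell (median log2 fold change 0.22). Over all tested genes 7.1% were called higher and 12.2% in either direction. An unadjusted p under 0.05 by limma was seen for 8 of the 14, against 28.7% of all tested genes. The B-type cyclin gene Ccnb1 had no cluster with exactly 1 symbol, so it was not tested here or in the lists that follow. Cdc25c, a second CDC25 phosphatase gene, rose by 0.60 ± 0.13 (SE; adjusted p = 0.0221), Cdk2, the kinase of S phase, by 0.41 ± 0.06 (adjusted p = 0.00746), Pkmyt1, which encodes a kinase that inhibits CDK1, by 0.33 ± 0.07 (adjusted p = 0.0211), and Gtse1 by 0.28 ± 0.06 (adjusted p = 0.0251). The cyclin gene Ccnb2 was the fifth, at 0.30 ± 0.08 (adjusted p = 0.0459). Ccna2, named after its value was seen, had -0.01 ± 0.08 (adjusted p = 0.954). The count of 5 called was 1 without Rb1L/L replicate 2 and at most 4 in the other fits without 1 array. In these fits Cdk2 passed in all 6, Cdc25c in 3, Pkmyt1 and Gtse1 in 2 each and Ccnb2 in 0.

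Of 12 tested polo, Aurora and NEK genes beyond the members, none was called by limma in either direction (median 0.01), against 12.2% of all tested genes. At an unadjusted p under 0.05, 2 of the 12 were counted, against 28.7% of all tested genes. Aurkb, the Aurora kinase gene of the chromosomal passenger complex, came nearest, with 0.31 ± 0.08 (SE; adjusted p = 0.0504), and with the replicate number as a block it was called (adjusted p = 0.0235). Nek4 had -0.19 ± 0.07 (adjusted p = 0.113), Plk4, the kinase gene of centriole duplication, 0.24 ± 0.11 (adjusted p = 0.193) and Plk2 0.15 ± 0.07 (adjusted p = 0.211). Of the 9 tested genes of the centrosome linker that NEK2 dissolves and its regulators, none was called by limma either (median 0.08). At an unadjusted p under 0.05, 1 of the 9 was counted. The shares of all tested genes are again 12.2% and 28.7%. The linker gene Cep250 had 0.18 ± 0.06 (adjusted p = 0.0788), Cep85 0.27 ± 0.12, Ppp1ca 0.11 ± 0.06 and Ctnnb1 0.09 ± 0.06.

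Among 24 tested spindle assembly factors and Aurora partners, 15 had an unadjusted p under 0.05 by limma, against 28.7% of all tested genes. Of the 24, 9 rose and none fell (median 0.21), against 7.1% of all tested genes called higher and 12.2% in either direction. They included 3 subunits of the chromosomal passenger complex that houses Aurora B: Incenp (0.50 ± 0.09 SE, adjusted p = 0.0139), Birc5 (0.49) and Cdca8 (0.35), the last 2 named after their values were seen. Tacc3, a spindle protein that Aurora A phosphorylates, rose by 0.48 ± 0.08 (adjusted p = 0.0127), and the augmin subunit genes Haus7 and Haus4 by 0.40 ± 0.08 and 0.41 ± 0.08 (adjusted p = 0.0199 each). Without Rb1L/L replicate 1 the count of 9 was 2, and without Rb1+/+ replicate 1 it was 5; Tacc3 passed in all 6 fits without 1 array, Incenp in 5, Birc5 and Haus7 in 4, Haus4 in 3 and Cdca8 in 2. Of the 18 tested genes of the APC/C, its co-activators and the E2 partner of UBE2C, 5 rose and none fell (median 0.22). An unadjusted p under 0.05 by limma was seen for 11 of the 18, with the same shares of all tested genes for comparison. The subunit genes Anapc5 (0.54 ± 0.07 SE, adjusted p = 0.00459), Cdc26 (0.47 ± 0.06, adjusted p = 0.00477) and Anapc13 (0.54 ± 0.08, adjusted p = 0.007) and the co-activator gene Cdc20 (0.56 ± 0.10, adjusted p = 0.0125) passed in all 6 fits without 1 array. Without both cultures numbered 1, none of the genes of the CDK1 regulator, spindle and APC/C lists was called by limma. At an unadjusted p under 0.05 the counts were then 5 of 14, 11 of 24 and 9 of 18, against 3021 of all 15462 tested genes.

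Of 32 tested genes known as targets of FOXM1 and MuvB, 18 rose and none fell (median 0.35), against 7.1% of all tested genes called higher and 12.2% in either direction. An unadjusted p under 0.05 by limma was seen for 24 of the 32, against 28.7%. Cenpa, the centromeric histone gene, rose by 0.77 ± 0.12 (SE; adjusted p = 0.00746), Kif2c, a microtubule-depolymerising kinesin, by 0.64 ± 0.08 (adjusted p = 0.00477), the spindle checkpoint gene Bub1b by 0.63 ± 0.08 (adjusted p = 0.00428) and Dlgap5, a spindle protein gene, by 0.57 ± 0.09 (adjusted p = 0.0087). The count of 18 called was 23 with the replicate block, 10 without Rb1+/+ replicate 1, 6 without Rb1L/L replicate 2 and 1 without both cultures numbered 1. In the list of 17 MuvB, B-MYB, E2F and forkhead genes that act on these targets, none was called by limma (median 0.06), against 12.2% of all tested genes. At an unadjusted p under 0.05, 4 of the 17 were counted, against 28.7% of all tested genes. The B-MYB gene Mybl2 had 0.26 ± 0.07 (SE; adjusted p = 0.0536, or 0.0293 with the replicate block), Foxo1 -0.29 ± 0.10 (adjusted p = 0.0847, or 0.0293 with the block), Foxk1 -0.22 ± 0.08 (adjusted p = 0.102) and Tfdp2 0.20 ± 0.08 (adjusted p = 0.116).

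Other proliferation markers behaved unevenly, as the 10 genes did. Of 14 tested, 8 rose and none fell (median 0.35), among them the tubulin-binding Stmn1 (0.72 ± 0.10 SE, adjusted p = 0.0055), the cyclin gene Ccne1 (0.42 ± 0.06, adjusted p = 0.00593), the helicase gene Mcm2 (0.38 ± 0.06, adjusted p = 0.00839) and Rrm2, a subunit of ribonucleotide reductase (0.49 ± 0.08, adjusted p = 0.0108). These are the 4 of smallest p. They passed in all 6 fits without 1 array, where the count ran from 5, without Rb1L/L replicate 1, to 9. With all arrays, 7.1% of all tested genes were called higher and 12.2% in either direction. An unadjusted p under 0.05 by limma was seen for 10 of the 14 with all arrays, against 28.7% of all tested genes. But without both cultures numbered 1 none of the 14 was called by limma. At an unadjusted p under 0.05, 10 of the 14 were then counted, against 3021 of all 15462 tested genes. Pcna, a clamp of the replication fork and like Ki-67 a common stain, had 0.01 ± 0.07 (adjusted p = 0.913) and is named here after its value was seen. Around Top2a and Ki-67, 2 of 12 topoisomerase and chromosome periphery genes rose and none fell (median -0.02): the Ki-67 partner gene Nifk (0.34 ± 0.08 SE, adjusted p = 0.0378) and Cdca2, a phosphatase-targeting protein of anaphase chromosomes (0.36 ± 0.09, adjusted p = 0.0427). Over all tested genes 7.1% were called higher and 12.2% in either direction, with a median of -0.02, so this list lay near the background. Of the 6 fits without 1 array, Nifk was called in 2 (adjusted p = 0.0333 to 0.12) and Cdca2 in 0 (adjusted p = 0.0535 to 0.132). Top3a had 0.25 ± 0.07 (adjusted p = 0.0545), Top1 had -0.16 ± 0.05 (adjusted p = 0.083), and the Top2a paralogue Top2b, named after its value was seen, -0.09 ± 0.07. Of 11 tested arrest and quiescence genes none was called by limma (median 0.02), against 12.2% of all tested genes. At an unadjusted p under 0.05, 3 of the 11 were counted, against 28.7%. Cdkn1b, a CDK inhibitor gene, had 0.22 ± 0.07 (adjusted p = 0.0649), Btg2 0.21, Btg1 0.17 and Gas1 -0.19. The CDK inhibitor gene Cdkn1a had no cluster with exactly 1 symbol and was not tested. Some genes belong to more than 1 of these lists.

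**Figure D4:**
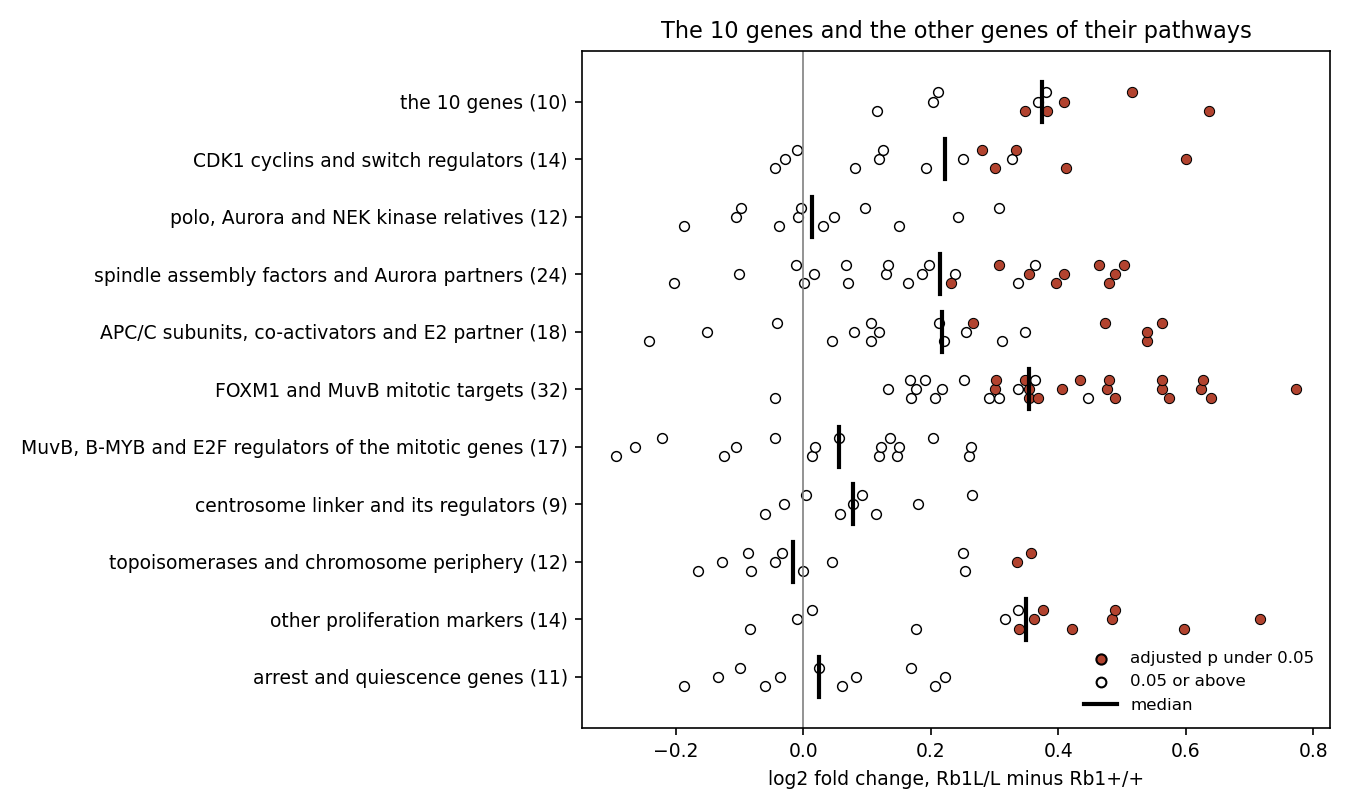
Log2 fold change (horizontal axis, Rb1L/L minus Rb1+/+) of the 10 genes and of every tested gene in each list, with the number of genes in brackets, red where the adjusted p was under 0.05 and black bars at the medians. The medians are 0.37 for the 10 genes and 0.35 for the FOXM1 and MuvB targets and for the other proliferation markers, against 0.01 for the kinase relatives and 0.02 for the arrest genes.

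The profile of the 10 genes over the 6 arrays, centred and averaged, was set against all other tested genes by the root mean square difference of centred log2 values. The closest were Mtfr2 (0.0191), the kinesin gene Kif20a (0.0223), the histone chaperone gene Asf1b (0.028), Troap (0.0292) and Med4, a Mediator subunit (0.0297), against a median of 0.229 over all tested genes outside the 10. Of the 10 themselves, Tpx2 (0.0313) and Plk1 (0.0321) lay nearest to their average and Nek2 (0.161) and Mki67 (0.125) farthest. Of the 10 genes, 4 (Aurka, Tpx2, Ube2c and Cdc25b) lie on chromosome 2 and 2 (Plk1 and Mki67) on chromosome 7. Chromosome 2 holds 8.02% of the tested genes and had 7.42% of its 1240 tested genes called higher.

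The cultures were checked against markers of the cells an embryo culture can hold. All 12 fibroblast markers lay above the limit for testing, with a mean over the list of log2 10.95 to 10.98 in Rb1L/L and 11.04 to 11.14 in Rb1+/+ arrays. Col3a1 fell by 0.33 and Lum by 0.39, with no other called by limma. Over all tested genes 5.08% were called lower and 7.1% higher, which is the background for this list and those that follow. With the replicate block 3 were called lower. Of the 12 log2 fold changes, 2 were above 0 (median -0.13). Of 12 tested macrophage and blood markers, Adgre1 (0.95) and C1qa (0.34) rose and Cx3cr1 fell by 0.34, with list means of 6.90 to 7.25 in Rb1L/L and 6.61 to 7.06 in Rb1+/+ arrays. In this list 10 log2 fold changes were above 0 (median 0.24), and the block gave 2 higher and 1 lower. Kdr rose by 0.58 among 7 endothelial markers (median -0.01), and Fabp7 and Tubb3 fell by 0.50 and 0.48 among 6 neural ones (median -0.06). Of these markers Col3a1, Kdr and Fabp7 passed in all 6 fits without 1 array, Adgre1 in 4, Lum in 2 and C1qa, Cx3cr1 and Tubb3 in 1 each. Without both cultures numbered 1, none of the fibroblast, macrophage and blood, endothelial and neural markers was called by limma. At an unadjusted p under 0.05 the counts were then 3 of 12, 2 of 12, 1 of 7 and 2 of 6, against 3021 of all 15462 tested genes. Of 7 skeletal muscle (median -0.07) and 6 epithelial markers (median 0.01) none was called by limma, against 12.2% of all tested genes. At an unadjusted p under 0.05 the counts were 2 and 0, against 28.7%. Pecam1, Myh3, Pax6, Dcx, Epcam and Cldn7 lay below the limit for testing. The part of these cells in the levels of the 10 genes was not tested.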

How the data were processed

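Total RNA of 6 cultures was labelled with biotin and hybridised to mouse gene arrays, 1 array per culture, per the labels. The authors deposited log2 values, for which the submitters' processing notes name RMA and Partek. Tool versions, settings and the genome build were not given in the sources used here. The RMA method places all arrays on one distribution, which hides a change common to the majority of genes, and it shrinks the folds of dim genes. Values ran from 2.28 to 14.16, array medians from 6.39 to 6.45. Arrays have no read depth, so their number limits the precision.

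Of 35556 transcript clusters, 21789 carried 1 symbol, 1621 several and 12146 were not named. Symbols were updated by gene ID through the RefSeq table (GRCm38.p6), in which 21698 were found; the brightest cluster stood for each of 19938 genes. A limit of log2 5.081, below which 90% of 1194 olfactory and vomeronasal receptor genes fell, left 15462 genes, which were tested with limma (version 3.58.1, in R version 4.3.3) by lmFit and eBayes with no block. The 10 genes and the lists were chosen with earlier results of these data known. Per list, the up to 4 genes of smallest p and any that fell were to be named, with the 5 genes closest to the average profile of the 10. The labels do not say which embryos the cultures came from. In each genotype the culture numbered 1 differed in sex from the other two and so came from another embryo; whether the other two came from separate embryos is not stated, so p-values measure the spread between these samples, which may in part be technical. The replicate numbers were taken as pairs, since the design text speaks of pairs and arrays with the same number deviated from their group means together (correlations of 0.30, 0.24 and 0.30 over all tested genes). The limma step was tested on simulated data. Alternatives covered the block, moderation, array weights, scaling, the filter, the choice of cluster and left-out arrays.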

Additional observations from a re-analysis of the deposited data

How the results depend on the processing

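Of the 90 log2 fold changes of the 10 genes under the settings that kept all arrays, 82 stayed on the same side of the threshold and 8 passed it newly, those of Top2a and Cdc25b; none lost it and none changed sign. The 10 genes gave 5 to 7 calls under those settings, 7 with the replicate block, and the count of all genes called ran from 1601 to 2233, with 2232 under the replicate block. The block changed no call of the 10 genes beyond those of Top2a and Cdc25b. Centring on the median of the tested genes, which was chosen after seeing the data, gave 5 calls and 1950 genes. Leaving out arrays took calls away. Without 1 array, 2 to 6 of the 10 genes were called and 622 to 1441 of all genes. Without both cultures of a number, 0 (number 1), 1 (number 2) and 1 (number 3) of the 10 were called, the 1 being Nek2 each time, and 92, 467 and 460 of all genes; with 2 arrays a group the fit has fewer degrees of freedom. Of 90 such fold changes 24 lost the threshold, 2 gained it and none changed sign. Another background correction could not be tried on summarised values.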
